A study of Homo sapiens with 132 samples.

Results

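The genes described here were 8 members of the BCL2 family, out of 65217 gene identifiers counted in each library. They were chosen by name and read from every count table through their Ensembl identifiers. Of these, 5 encode proteins that keep cells alive (BCL2, BCL2L1, MCL1, BCL2L2 and BCL2A1) and 3 encode the effectors that open the outer mitochondrial membrane (BAX, BAK1 and BOK). Polyadenylated RNA was sequenced from 4 human gastric cancer lines, Hs746T, MKN1, NCI-N87 and MKN7, each of them an established line and so 1 genetic background. All 4 lines were left untreated or were given trastuzumab (an antibody to the receptor HER2, 5 µg/ml), afatinib (an irreversible kinase inhibitor of the EGFR family, 0.5 µM) or both, for 4 h or 24 h. MKN1 and Hs746T cells were in addition given EGF (5 ng/ml), cetuximab (an antibody to EGFR, 1 µg/ml) or both. The paper names DMSO as the solvent control of afatinib, but no library here came from cells given DMSO alone. Every comparison with afatinib against untreated cells therefore holds the drug and its solvent together, and these cannot be told apart. There were 3 biological replicates of each of 44 conditions, which gave 42 libraries each of MKN1 and Hs746T and 24 each of MKN7 and NCI-N87. Hs746T cells were kept in DMEM and the other lines in RPMI medium, so medium and line cannot be told apart in any comparison of Hs746T with the others.

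BCL2 family proteins decide whether the mitochondrial route to apoptosis is taken. BCL2, BCL-XL (the long product of BCL2L1), MCL1, BCL-W (BCL2L2) and BFL1 (BCL2A1) bind and hold back the effectors, and they are themselves blocked by a further group, the BH3-only proteins, of which BIM, PUMA and BMF are examples. Once released, BAX and BAK oligomerise and make pores through which cytochrome c leaves the mitochondria and caspases become active. BOK is a related effector that is controlled in part by how fast it is degraded. The MCL1 protein has a short half-life, and these libraries measure its messenger RNA and not the protein. Signalling from EGFR and HER2 through the ERK and AKT kinases is known to act on several family members in epithelial tumour cells.

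On GRCh38, BCL2 (ENSG00000171791) lies at chr18:63123346-63320128 on the minus strand, BCL2L1 (ENSG00000171552) at chr20:31664452-31723989 on the minus strand, MCL1 (ENSG00000143384) at chr1:150574551-150579738 on the minus strand, BCL2L2 (ENSG00000129473) at chr14:23298790-23311759 on the plus strand, and BCL2A1 (ENSG00000140379) at chr15:79960889-79971446 on the minus strand. Among the effectors, BAX (ENSG00000087088) lies at chr19:48954815-48961798 on the plus strand, BAK1 (ENSG00000030110) at chr6:33572547-33580293 on the minus strand and BOK (ENSG00000176720) at chr2:241551424-241574138 on the plus strand. The counts covered whole genes, so splice forms with opposite functions, such as the long and short forms of BCL2L1 and MCL1, were summed.

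The promoter stretches of BCL2L1, the survival gene that fell most in MKN7 cells given afatinib for 4 h, and of BAX, the effector whose level moved less, are shown 5′ to 3′ on the strand of the gene. Both come from RefSeq on GRCh38 and end before the first annotated exon, BCL2L1 at chr20:31723990-31724213 (224 bases) and BAX at chr19:48954625-48954814 (190 bases). Capitals mark CACGTG, the E-box hexamer.
BCL2L1: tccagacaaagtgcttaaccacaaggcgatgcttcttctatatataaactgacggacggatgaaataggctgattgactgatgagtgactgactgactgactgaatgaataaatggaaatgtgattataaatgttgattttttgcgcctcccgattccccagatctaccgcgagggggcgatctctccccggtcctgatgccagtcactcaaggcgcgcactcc
BAX: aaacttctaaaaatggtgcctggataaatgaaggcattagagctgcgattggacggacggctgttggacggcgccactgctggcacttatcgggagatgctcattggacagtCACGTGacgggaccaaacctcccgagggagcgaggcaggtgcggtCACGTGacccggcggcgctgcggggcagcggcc
Over the full 300-base window from 250 bases before to 50 bases after its start, BAX held 4 copies of CACGTG, counted on both strands at once because the motif is its own reverse complement. At least 1 copy was present in 7.26% of 35116 promoter windows of that length, and 4 or more in 5 of them (0.0142%). The BCL2L1 window of the stretch shown held 1 match to CCGGAA, the core of an ETS site, read on both strands, and 17.2% of windows held at least 1. That match lay at offset 9, after the start and outside the printed stretch. A further BCL2L1 window, from chr20:31722819, held no match. These are matches of letters and carry no measurement of binding.

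Library depth ran from 25832557 to 69434151 counts (median 50725775), so that 3 counts, the limit a count of 0 allows, correspond to 0.0432 to 0.116 CPM (counts per 1000000 counts of the library). CPM values here were scaled by the trimmed mean of M values (TMM) over all libraries together. BAK1 was listed at 0 in every library of the series, and so was HLA-B, a gene that nucleated cells use widely. Of 19674 protein-coding genes, 1970 (10%) were at 0 in every library. Whether the 0 of BAK1 came from the cells or from the annotation and counting was not tested, so it is not read as absence of the transcript. BAK1 was left out of the fits. Of the epithelial markers, CDH1 was under 1 CPM in Hs746T cells, and the summed level of 6 epithelial markers was 716 to 1042 CPM there against 4471 to 25913 CPM in the other lines. The leukocyte markers PTPRC and CD3E were under 1 CPM in every line. In such bulk libraries, fewer cells that express a gene and less RNA per cell cannot be told apart.

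In untreated cells MCL1 and BCL2L1 were by far the most abundant survival transcripts, and BCL2 itself was scarce. MCL1 at 24 h measured 440 ± 62.3 CPM in MKN1 cells, 377 ± 19.3 in Hs746T, 332 ± 14.7 in NCI-N87 and 276 ± 67 in MKN7 cells (mean ± SD, n = 3 in each line, as for all values of this form). BCL2L1 at 24 h measured 252 ± 15.1 CPM in NCI-N87 cells, 251 ± 6.79 in Hs746T, 184 ± 11.9 in MKN7 and 170 ± 6.37 in MKN1 cells. BCL2 at 24 h measured 18.2 ± 4.16 CPM in Hs746T cells, 7.95 ± 1.95 in MKN1, 7.23 ± 0.686 in NCI-N87 and 3.95 ± 0.922 in MKN7 cells. Hs746T therefore stood above the other lines for BCL2, with every library there (15.5 to 23 CPM) above every library of the rest (3.41 to 10.1 CPM). The joint edgeR quasi-likelihood fit put BCL2 lower than in Hs746T cells by 1.20 on the log2 scale in MKN1 (adjusted p = 1.41e-07), with log2 differences of −2.21 in MKN7 (adjusted p = 1.16e-16) and −1.33 in NCI-N87 (adjusted p = 8.51e-09). Between-line differences were common at 24 h, since 68.6% of all genes tested differed between MKN1 and Hs746T, 66.6% between MKN7 and Hs746T and 68.4% between NCI-N87 and Hs746T, and 64.5%, 68% and 65.6% for MKN1 and MKN7, MKN1 and NCI-N87, and MKN7 and NCI-N87.

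**Figure D1:**
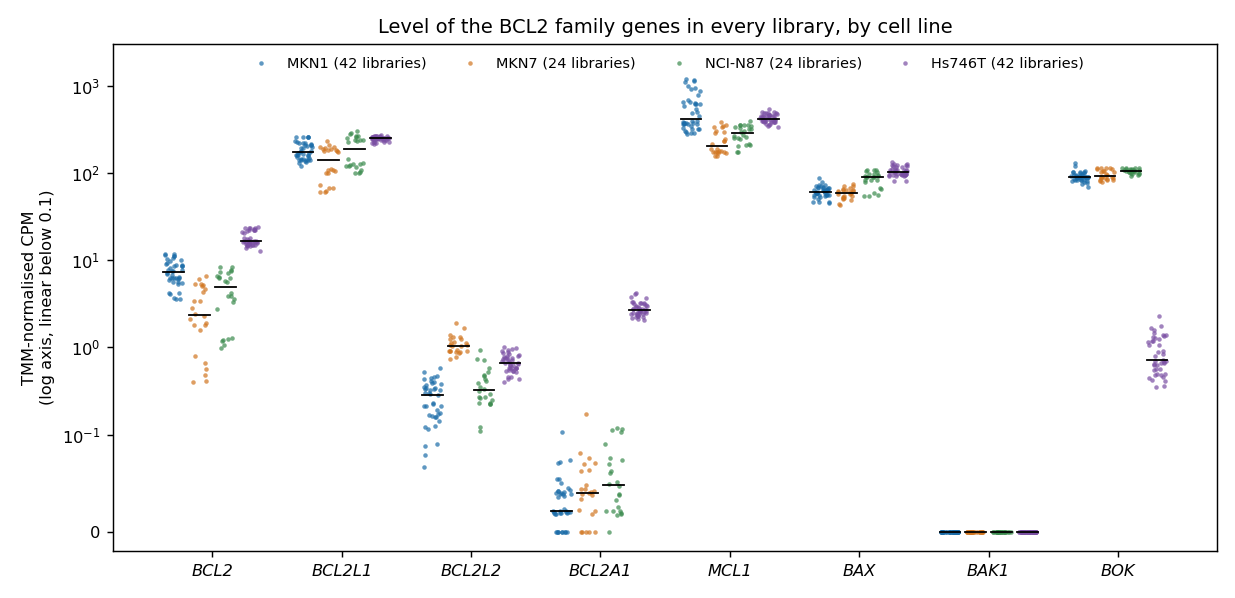
Level of each BCL2 family member in every library, in TMM-scaled CPM on a log axis that is linear near 0, by cell line, with 1 point per library and a bar at the median. BOK sits near 1 CPM in Hs746T cells and near 90 CPM or more in the other lines, and BCL2A1 shows the opposite pattern.

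BOK and BCL2A1 divided the lines most sharply. BOK in untreated cells at 4 h measured 87.5, 88.7 and 106 CPM in the 3 MKN1 libraries, 87.7, 86.1 and 89.7 in MKN7 and 92.2, 95.2 and 105 in NCI-N87. In Hs746T cells it measured 1.18, 1.46 and 0.69 CPM, from 63, 89 and 36 counts, with no overlap. At 24 h the log2 difference from Hs746T was 6.50 in MKN1 (adjusted p = 7.78e-33), 6.61 in MKN7 (adjusted p = 2.88e-33) and 6.82 in NCI-N87 cells (adjusted p = 3.11e-34), by the joint edgeR fit. BCL2A1 ran the other way, and its 42 Hs746T libraries held 57 to 213 counts each. No library of another line held more than 9 counts. Summed over libraries, the BCL2A1 share of counts in Hs746T was 95.6 times that in MKN1 (95% exact interval 74.4 to 125), 68.7 times that in MKN7 (52 to 92.7) and 51.8 times that in NCI-N87 (40.6 to 67.2). These intervals cover counting error only.

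BAX was higher in NCI-N87 and Hs746T than in MKN1 and MKN7 cells. At 24 h it measured 91.6 ± 2.54 CPM in NCI-N87 and 99.7 ± 7.62 in Hs746T, against 60.9 ± 5.13 in MKN1 and 62.1 ± 12.4 in MKN7. The log2 difference of MKN1 from NCI-N87 was −0.59 (adjusted p = 0.000241) and that of MKN7 from NCI-N87 was −0.56 (adjusted p = 0.000484), both by the joint edgeR fit. BCL2L2 in untreated cells at 24 h measured 0.942 ± 0.0862 CPM in MKN7 and 0.78 ± 0.171 in Hs746T, against 0.262 ± 0.0406 in MKN1 and 0.231 ± 0.12 in NCI-N87 cells. The difference of MKN1 and NCI-N87 did not pass the test (log2 difference 0.17, 95% interval −0.58 to 0.92, adjusted p = 0.711, joint edgeR fit), nor did that of MKN7 and Hs746T (0.24, −0.34 to 0.82, adjusted p = 0.476, joint edgeR fit). That gene shares 813 exonic bases with the read-through transcript BCL2L2-PABPN1, which itself drew 109 to 574 counts a library, so the counts assigned to BCL2L2 are uncertain.

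Levels of different genes were compared per kilobase of exon. In untreated Hs746T cells at 4 h the order ran from MCL1 (106 ± 6.96 CPM per kb) through BCL2L1 (72.9 ± 4.7), BAX (39.4 ± 2.85), BCL2A1 (2.13 ± 0.0854), BCL2 (1.59 ± 0.341) and BOK (0.409 ± 0.144) to BCL2L2 (0.162 ± 0.0249). No neighbours in that order overlapped between libraries. In NCI-N87 cells at 24 h MCL1 (76 ± 3.37 CPM per kb) and BCL2L1 (76 ± 4.56) could not be ordered. The order of some neighbours depended on the length used. With the longest transcript in place of the exon union BAX moved above BOK in MKN1 and MKN7 cells at both times and in NCI-N87 cells at 24 h, BCL2 moved above BCL2A1 in Hs746T cells at both times, and BCL2L1 moved above MCL1 in NCI-N87 cells at both times and in MKN7 and Hs746T cells at 24 h.

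Afatinib lowered the survival genes in MKN1, MKN7 and NCI-N87 cells within 4 h. BCL2L1, MCL1 and BCL2 fell in each of these lines, while BAX and BOK did not pass the test in any of them at 4 h. At an adjusted p under 0.05, 3 of 6 members tested fell in MKN1 cells, where 2.41% of all genes were called lower. In MKN7 cells 3 of 6 fell and 1, BCL2L2, rose, where 12.1% of genes were lower and 10.1% higher. In NCI-N87 cells 3 of 6 fell, where 9.1% of genes were lower. With the added requirement of a log2 change beyond 1, used for the word regulated here, none of the 6 was regulated in MKN1 (background 0.439% lower), 3 in MKN7 (1.59%) and 1, BCL2L1, in NCI-N87 cells (1.22%).

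BCL2L1 showed the largest early fall in MKN7 cells. Its untreated libraries at 4 h measured 229, 189 and 200 CPM, and the afatinib libraries 71.7, 61.1 and 61.9 CPM. The groups were far apart, with a log2 fold change of −1.70 ± 0.085 (SE, n = 3 per group, adjusted p = 1.78e-11, edgeR). NCI-N87 cells went from 227, 264 and 241 to 117, 126 and 121 CPM (log2 fold change −1.01 ± 0.11, adjusted p = 1.16e-06, edgeR), and MKN1 cells from 215, 217 and 191 to 142, 145 and 128 CPM (−0.61 ± 0.089, adjusted p = 2.91e-05, edgeR). The groups did not overlap in either line. The NCI-N87 value sat at the size limit and was −0.98 without replicate 2 and −0.94 with library size alone.

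By 24 h BCL2L1 had partly returned in MKN7 cells, to 109, 105 and 98.8 CPM against 180, 174 and 197 CPM in untreated cells (log2 fold change −0.82, adjusted p = 8.69e-08, edgeR). The effect at 24 h minus that at 4 h was 0.88 (adjusted p = 2.37e-05, edgeR). In NCI-N87 cells BCL2L1 stayed low at 108, 100 and 145 CPM against 238, 250 and 268 CPM (−1.13, adjusted p = 1.5e-08, edgeR), or −0.88 with library size alone, inside the size limit. In MKN1 cells the 24 h values of 145, 160 and 137 CPM lay just under the untreated 165, 167 and 177 CPM, without overlap, and missed the threshold (−0.22, adjusted p = 0.0619, edgeR). With the replicate number as a block, which called 22% of all genes lower there, the adjusted p of that difference was 0.00154, and without replicate 2 it was 0.0452.

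**Figure D2:**
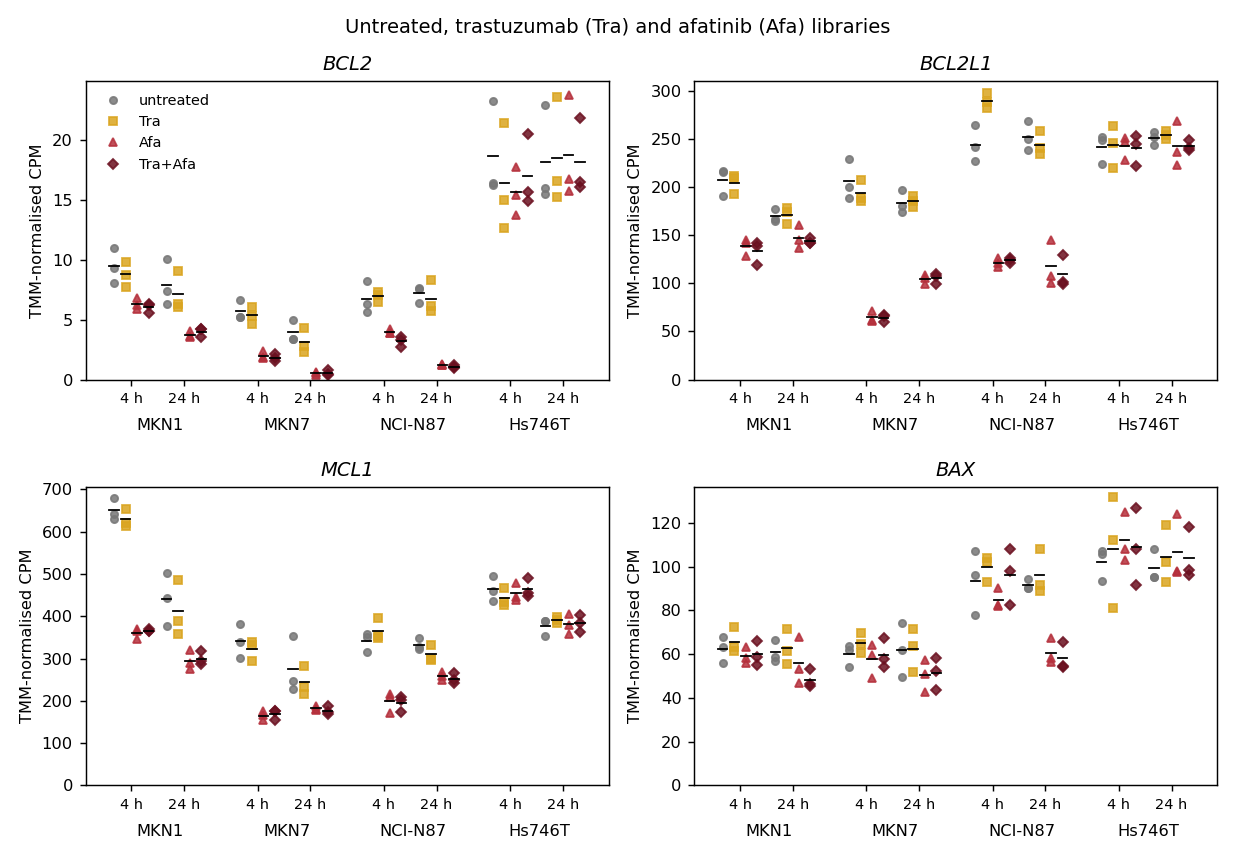
Levels of BCL2, BCL2L1, MCL1 and BAX in libraries left untreated or given trastuzumab (Tra), afatinib (Afa) or both, by line and time, in TMM-scaled CPM, with 1 point per library and a bar at the mean. In MKN7 cells BCL2L1 drops from 189 to 229 CPM to 61.1 to 71.7 CPM at 4 h, while the Hs746T points overlap.

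MCL1 fell in the same lines at 4 h. In MKN1 cells at 4 h it went from 641, 630 and 679 CPM to 369, 347 and 364 CPM (log2 fold change −0.87 ± 0.090, adjusted p = 9.47e-08, edgeR). In MKN7 cells it went from 302, 339 and 382 to 154, 167 and 175 CPM (−1.09 ± 0.13, adjusted p = 2.17e-06, edgeR). In NCI-N87 cells it went from 315, 358 and 351 to 210, 172 and 216 CPM (−0.77, adjusted p = 2.47e-06, edgeR). Untreated and treated libraries did not overlap in any of these lines.

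At 24 h the fall in MCL1 was −0.60 in MKN1 (adjusted p = 9.68e-06), −0.61 in MKN7 (adjusted p = 0.000383) and −0.39 in NCI-N87 cells (adjusted p = 0.000729), on the log2 scale by edgeR. The NCI-N87 libraries measured 249, 259 and 269 CPM against 326, 349 and 322 CPM and did not overlap. That call was lost when counts were scaled by library size alone (−0.13, adjusted p = 0.16), a scaling that moved the median log2 fold change of all genes in that comparison by 0.26. In NCI-N87 cells the effect at 24 h was 0.38 above that at 4 h (adjusted p = 0.0237, edgeR), which was not called without replicate 2 (0.32) or replicate 3 (0.40). In MKN7 cells the same difference was 0.48 (adjusted p = 0.0666, edgeR), and 0.50 with the replicate number as a block (adjusted p = 0.00052), where 17.6% of all genes were called higher.

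BCL2, the founding member of the family, started low and fell furthest by 24 h. In MKN7 cells it went from 3.41, 3.42 and 5.01 CPM to 0.404, 0.571 and 0.66 CPM, a level 0.139 times that of untreated cells (log2 fold change −2.85 ± 0.26, adjusted p = 3.47e-08, edgeR). Those treated MKN7 libraries held only 20, 34 and 35 counts, against 170, 174 and 231 untreated. In NCI-N87 cells it went from 6.44, 7.56 and 7.69 CPM to 1.29, 1.26 and 1.21 CPM, or 0.17 times (−2.56 ± 0.16, adjusted p = 1.88e-11, edgeR). In MKN1 cells it went from 7.45, 6.29 and 10.1 CPM to 4.09, 3.67 and 3.54 CPM (−1.09 ± 0.16, adjusted p = 4.61e-06, edgeR), and was −0.84 without replicate 3, inside the size limit. The lowest untreated library was above the highest treated one in each of these lines.

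The fall of BCL2 grew with time in the lines where it was deepest. At 4 h it was −1.54 ± 0.23 in MKN7 (adjusted p = 4.3e-05), −0.75 in NCI-N87 (adjusted p = 0.00106) and −0.60 ± 0.15 in MKN1 cells (adjusted p = 0.0183), by edgeR. The effect at 24 h minus that at 4 h was −1.81 in NCI-N87 (adjusted p = 1.7e-06) and −1.31 in MKN7 cells (adjusted p = 0.012), by edgeR, where 35.8% and 18% of all genes differed between times, and the MKN7 value was not called without replicate 1 (−1.26) or replicate 2 (−1.45). The 4 h value in MKN1 was no longer called without replicate 1 (−0.54) or replicate 3 (−0.60). Nor was it called with library size alone (−0.51, adjusted p = 0.0565) or with only the compared groups in the fit (adjusted p = 0.0784), both by edgeR.

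At 24 h 2 of 6 members tested fell in MKN1 cells, where 13.3% of all genes were called lower, and BCL2 was the member regulated (1.02% of genes regulated lower). In MKN7 cells 3 of 6 fell and BOK rose, where 25% of genes were lower and 26.6% higher, and BCL2 was again the member regulated (3.25% lower). In NCI-N87 cells 4 of 6 fell and BCL2L2 rose, where 31% of genes were lower and 31.5% higher, with 2 regulated lower (11.5%) and 1 higher (18.1%). With such backgrounds a call alone says little at 24 h, and the sizes of the changes carry the description.

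BAX changed little except in NCI-N87 cells at 24 h. There it went from 90.2, 90.1 and 94.5 CPM to 56.3, 58.2 and 67.2 CPM, without overlap (log2 fold change −0.63 ± 0.11, adjusted p = 4.7e-05, edgeR). In MKN7 cells at 24 h the libraries overlapped, at 62.1, 49.6 and 74.5 CPM untreated and 51, 42.6 and 57.5 CPM treated (−0.31, adjusted p = 0.0908, edgeR), although the adjusted p was 4.21e-05 with the replicate number as a block, where 30.6% of all genes were called lower, and 0.03 without replicate 2. In MKN1 cells at 24 h the value was −0.14 (95% interval −0.43 to 0.15). At 4 h the intervals were −0.38 to 0.20 in MKN1, −0.41 to 0.21 in MKN7 and −0.36 to 0.099 in NCI-N87 cells. BAX is on a list of apoptosis genes that the study drew from these same libraries, so its values are not independent evidence of a direction. That list holds genes the paper called regulated in NCI-N87 cells at 24 h, while the BAX value there (−0.63) was inside the size limit here. BBC3 and FAS, given below, are on the same list.

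BOK rose slightly in MKN7 cells at 24 h, from 102, 94.8 and 88.8 to 113, 111 and 115 CPM, without overlap (log2 fold change 0.24, adjusted p = 0.00402, edgeR), and was no longer called without replicate 3 (0.17). In NCI-N87 cells at 24 h its direction depended on the scaling (−0.016, adjusted p = 0.859, against 0.25, adjusted p = 0.00362, with library size alone). BOK shares 201 exonic bases with the antisense gene BOK-AS1, which had a log2 fold change of 0.87 in MKN7 (adjusted p = 0.0114, edgeR) and 0.71 in NCI-N87 cells at 24 h (adjusted p = 0.00505, edgeR). Whether the counting used strand is not given in the sources used here, so reads of the pair cannot be told apart. BOK-AS1 held a median of 71.5 and at most 240 counts a library. In MKN7 cells at 24 h BOK held 5067, 4830 and 4094 counts untreated and 5578, 6639 and 6105 with afatinib. The part of BOK-AS1 in the BOK counts was not tested.

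BCL2L2, the gene for BCL-W, was the survival gene that rose. In NCI-N87 cells at 24 h it went from 0.35, 0.232 and 0.11 CPM (18, 11 and 5 counts) to 0.524, 0.48 and 0.472 CPM (30, 27 and 25 counts), without overlap (log2 fold change 1.04 ± 0.37, adjusted p = 0.0183, edgeR). The call was lost without replicate 2 (adjusted p = 0.123) or replicate 3 (adjusted p = 0.111). In MKN7 cells at 4 h it went from 0.919, 0.774 and 1.05 to 1.67, 1.24 and 1.9 CPM (0.77 ± 0.20, adjusted p = 0.00632, edgeR), a call lost without replicate 1 or replicate 3. The overlapping BCL2L2-PABPN1 changed by 0.48 in NCI-N87 cells at 24 h (adjusted p = 0.0404, edgeR), and its part in the BCL2L2 counts was not tested.

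**Figure D3:**
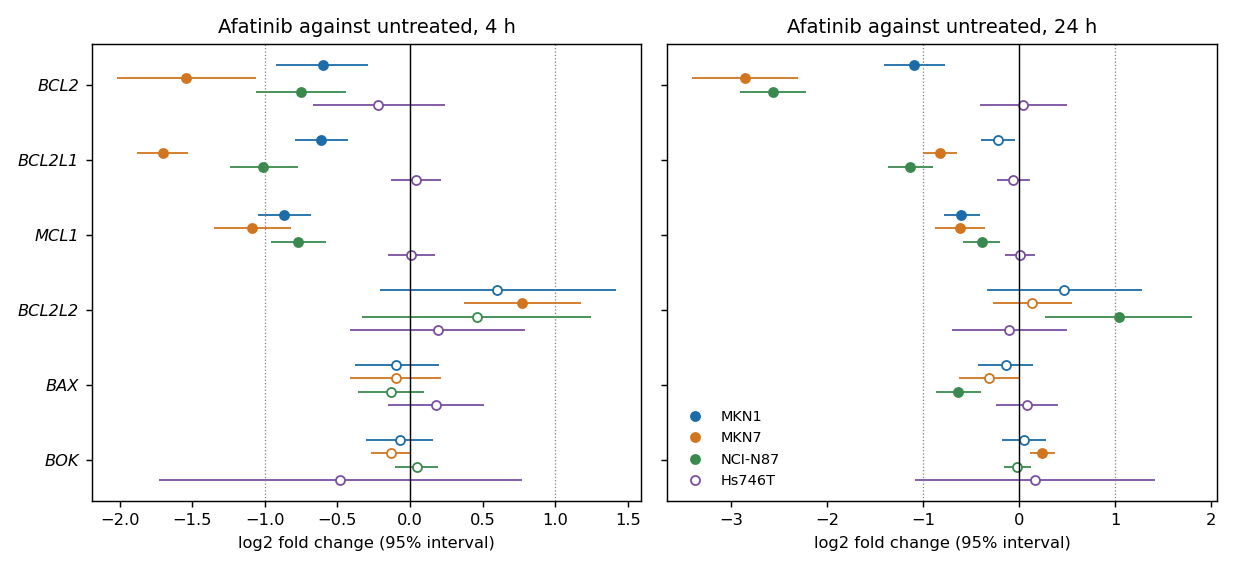
Log2 fold change of each family member tested under afatinib against untreated cells, by line and time, with 95% intervals from the edgeR fit, filled points for an adjusted p under 0.05 and dotted lines at −1 and 1. BCL2A1 and BAK1 are not drawn. BCL2 reaches −2.85 in MKN7 and −2.56 in NCI-N87 cells at 24 h, and the Hs746T values lie around 0.

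In Hs746T cells no member passed the test after afatinib. The count was 0 of 7 members at both times by edgeR, and 0 by DESeq2, with 1 member at an unadjusted p under 0.05 at 4 h and 0 at 24 h, where 0% of all genes were called. BCL2 measured 23, 16 and 15.5 CPM untreated and 23.8, 15.8 and 16.8 CPM treated at 24 h, with replicate 1 highest in both. BCL2L1 measured 257, 252 and 244 against 223, 236 and 268 CPM, and MCL1 388, 354 and 388 against 380, 359 and 405 CPM, all overlapping. The 95% intervals of the log2 fold change at 24 h were −0.41 to 0.50 for BCL2, −0.23 to 0.11 for BCL2L1 and −0.15 to 0.17 for MCL1.

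The 1 member at an unadjusted p under 0.05 in Hs746T cells was BCL2A1, the gene for BFL1, at 4 h. It measured 2.43, 2.3 and 2.24 CPM untreated and 3.71, 4.17 and 2.42 CPM with afatinib, which overlapped at 2.43 and 2.42 (log2 fold change 0.60, adjusted p = 0.678, edgeR). With the replicate number as a block BCL2A1 was called (0.60, adjusted p = 0.00409), and BCL2 as well (−0.21, adjusted p = 0.0245), in a fit where 10.3% of all genes were called higher and 8.29% lower. With trastuzumab and afatinib together at 4 h the blocked value of BCL2A1 was 0.55 (adjusted p = 0.0393), where 0.889% of all genes were called higher.

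The afatinib effects were compared between lines directly in the joint edgeR fit. At 24 h the effect on BCL2 was lower than in Hs746T cells in MKN7 (difference −2.89), NCI-N87 (−2.57) and MKN1 (−1.12), and the effect in MKN1 was weaker than in MKN7 (1.77) and NCI-N87 (1.45). For BCL2L1 at 4 h the effect in MKN7 was deeper than in Hs746T (−1.67), than in NCI-N87 (−0.66) and than in MKN1, where the difference of MKN1 from MKN7 was 1.08. The effect on MCL1 at 4 h was deeper than in Hs746T in all 3 other lines, at −0.82 for MKN1, −1.02 for MKN7 and −0.75 for NCI-N87 cells, and did not pass the test between MKN1 and MKN7 (0.20, 95% interval −0.075 to 0.47, adjusted p = 0.787). The effect on BAX in NCI-N87 at 24 h differed from that in Hs746T by −0.69. Each of the differences given without a p here passed an adjusted p of 0.05, in comparisons where the effect differed for a share of all genes that depended on the lines. At 24 h that share was 18.8% for MKN7, 35.1% for NCI-N87 and 4.41% for MKN1 against Hs746T, 7.61% for MKN1 against MKN7 and 28% for MKN1 against NCI-N87. At 4 h it was 5.3% for MKN7, 6.74% for NCI-N87 and 0.372% for MKN1 against Hs746T, 1.01% for MKN7 against NCI-N87 and 1.38% for MKN1 against MKN7. When a replicate was left out, MKN1 against Hs746T lost the call for BCL2 at 24 h without replicate 2 (−1.29) or 3 (−0.87), MKN7 against NCI-N87 for BCL2L1 at 4 h without replicate 2 (−0.72), and NCI-N87 against Hs746T for BAX without replicate 3 (−0.61).

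With the replicate number as a block more differences between lines passed, for the members and for all genes. The shares in this paragraph are those of all genes called in the same direction. The afatinib effect on BCL2 at 4 h then differed between MKN1 and MKN7 (0.92, adjusted p = 3.34e-06, 5.14%), between MKN7 and NCI-N87 (−0.76, adjusted p = 0.000272, 3.48%) and between NCI-N87 and Hs746T (−0.50, adjusted p = 0.00213, 12%). That on BCL2L1 differed between MKN1 and NCI-N87 at 4 h (0.42, adjusted p = 3.72e-05, 6.29%) and between MKN7 and NCI-N87 at 24 h (0.30, adjusted p = 0.00142, 22.2%). That on BAX at 24 h differed from NCI-N87 in MKN1 (0.48, adjusted p = 0.000383, 24.5%) and in MKN7 (0.31, adjusted p = 0.0276, 22.2%), and from Hs746T in MKN7 (−0.38, adjusted p = 0.00542, 19.4%). The blocked effects at 24 h and 4 h differed in MKN1 for BCL2 (−0.48, adjusted p = 0.0435, 8.46%) and BCL2L1 (0.38, adjusted p = 0.00108, 7.21%), and in MKN7 for BAX (−0.20, adjusted p = 0.0441, 19.1%).

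No member passed the test with trastuzumab alone in any line at either time by edgeR, where 0% of all genes were called. The count was 0 by DESeq2 too, and the only unadjusted p under 0.05 was 1 member in NCI-N87 cells at 4 h. In those cells at 4 h BCL2L1 measured 227, 264 and 241 CPM untreated and 282, 288 and 298 CPM with trastuzumab, without overlap. Adding trastuzumab to afatinib gave values close to those of afatinib alone, with the same untreated libraries behind both. BCL2 at 24 h was −2.80 in MKN7 (adjusted p = 4.03e-08), −2.77 in NCI-N87 (adjusted p = 6.26e-12) and −1.01 in MKN1 cells (adjusted p = 1.28e-05) with the pair of drugs, by edgeR. The MKN1 value was −0.99 with the replicate number as a block, −0.88 with library size alone and −0.73 without replicate 3, inside the size limit.

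No member passed the test between the pair of drugs and afatinib alone in any line (0 by edgeR and by DESeq2, with 0% of all genes called). In NCI-N87 cells 1 member had an unadjusted p under 0.05 at 4 h, BCL2 (log2 difference −0.33, 95% interval −0.64 to −0.008), and 1 at 24 h, BCL2L2 (0.69, 0.011 to 1.37). BCL2L2 in those cells measured 0.737, 0.714 and 0.938 CPM with both drugs at 24 h, above the 0.472 to 0.524 CPM of afatinib alone. It was 1.73 above untreated cells on the log2 scale (adjusted p = 0.000248, edgeR). At 4 h it was called under both drugs with the replicate number as a block, at 0.87 in NCI-N87 (adjusted p = 0.0442) and 0.50 in MKN7 cells (adjusted p = 0.0445), where 15.8% and 18.8% of all genes were called higher. BCL2L1 under both drugs at 24 h was −1.24 in NCI-N87 (adjusted p = 3.74e-09), −0.80 in MKN7 (adjusted p = 1.16e-07) and −0.27 in MKN1 cells (adjusted p = 0.0211), by edgeR, the last of which was not called without any 1 of the replicates (−0.24 to −0.29) or with library size alone (−0.14). BAX under both drugs at 24 h was −0.69 in NCI-N87 cells (adjusted p = 1.52e-05, edgeR), and by the block −0.35 in MKN1 (adjusted p = 0.00263) and −0.27 in MKN7 cells (adjusted p = 0.000169), neither of which was called without the block, while the block called 22.7% and 30.8% of all genes lower.

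Against trastuzumab alone, the pair of drugs lowered MCL1, BCL2 and BCL2L1 in MKN1, MKN7 and NCI-N87 cells at both times. MCL1 in NCI-N87 cells at 24 h (−0.32) was −0.034 with library size alone (adjusted p = 0.731) and was not called without replicate 1 (−0.30) or 2 (−0.23). BCL2 in MKN1 cells at 4 h (−0.55) was not called without any 1 of the replicates (−0.50 to −0.58), with library size alone (−0.46) or with only the compared groups in the fit (−0.54). At 24 h BCL2 was −2.48 in MKN7 (adjusted p = 4.55e-07) and −2.66 in NCI-N87 cells (adjusted p = 1.57e-11), by edgeR, and 3 of 6 members fell in MKN7 and 4 in NCI-N87, where 21.6% and 30.3% of all genes fell. In MKN1 cells 4 of 6 fell (14.9% of genes), and BCL2L1 (−0.28, adjusted p = 0.0167) and BAX (−0.40, adjusted p = 0.0327, both edgeR) were not called without any 1 of the replicates or with library size alone (−0.13 and −0.26), nor BCL2 (−0.86) without replicate 3 (−0.57). With the replicate number as a block BAX was −0.29 at 24 h (adjusted p = 8.3e-05) and BOK −0.18 at 4 h (adjusted p = 0.0128) in MKN7 cells, where 28.4% and 19.3% of all genes were called lower. In Hs746T cells no member passed (0 of 7 by edgeR and by DESeq2, 0 at an unadjusted p under 0.05).

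**Figure D4:**
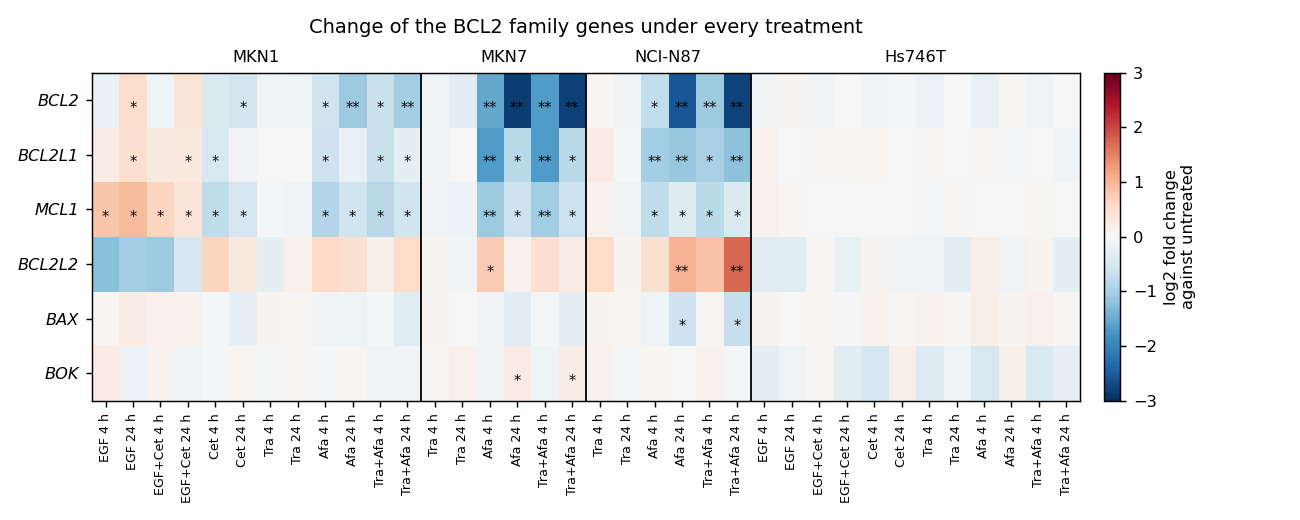
Log2 fold change against untreated cells of 6 family members, as colour, for every treatment, line and time, with 1 star for an adjusted p under 0.05 by edgeR and 2 stars where the change also passed the size limit. MCL1 in MKN1 cells stands at 0.96 with EGF and −0.50 with cetuximab at 24 h.

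EGF and cetuximab moved MCL1 in opposite directions in MKN1 cells. At 4 h MCL1 measured 641, 630 and 679 CPM untreated, 1126, 1164 and 1180 CPM with EGF and 376, 396 and 386 CPM with cetuximab. The 3 groups did not overlap. EGF gave a log2 fold change of 0.84 (adjusted p = 3.62e-08, edgeR) and cetuximab −0.76 (adjusted p = 4.2e-06, edgeR). EGF with cetuximab gave 983, 933 and 1094 CPM (0.64, adjusted p = 0.00012, edgeR). At 4 h 1 of 6 members tested rose with EGF, where 4.37% of all genes rose, 1 with EGF and cetuximab (0.611%), and 2 fell with cetuximab (1.15% lower), the other being BCL2L1 (−0.47, adjusted p = 0.00198, edgeR) at 161 and 160 CPM in replicates 1 and 2 and a lower level in replicate 3 (6889 counts). Without replicate 1 neither the MCL1 call under EGF with cetuximab (0.64, adjusted p = 0.0645) nor the BCL2L1 call under cetuximab (−0.49, adjusted p = 0.155) remained, and neither did with only the compared groups in the fit (0.63, adjusted p = 0.0553, and −0.46, adjusted p = 0.0954).

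At 24 h MCL1 stayed high with EGF, at 859, 779 and 905 CPM against 443, 377 and 501 CPM in untreated cells (log2 fold change 0.96, adjusted p = 9.08e-10, edgeR), and low with cetuximab, at 325, 299 and 322 CPM (−0.50, adjusted p = 0.000499, edgeR). BCL2L1 rose with EGF to 234, 261 and 223 CPM (0.51, adjusted p = 2.8e-05, edgeR). BCL2 rose with EGF to 11.9, 10.5 and 11.3 CPM (0.52, adjusted p = 0.00696, edgeR) and fell with cetuximab to 5.36, 5.4 and 5.56 CPM (−0.56, adjusted p = 0.0148, edgeR). The rise of BCL2 with EGF was lost with library size alone (0.33, adjusted p = 0.0874), a scaling that moved the median of all genes by −0.20, and without replicate 1 (0.43) or replicate 2 (0.42). Its fall with cetuximab was not called without replicate 1 (−0.61) or replicate 3 (−0.38), or with only the compared groups in the fit (−0.55). At 24 h 3 of 6 members rose with EGF (17.3% of all genes higher), 2 with EGF and cetuximab (9.17%) and 2 fell with cetuximab (5.91% lower).

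With cetuximab added to EGF, MCL1 was lower than with EGF alone at 24 h, at 610, 538 and 581 CPM (log2 difference −0.57, adjusted p = 0.000566, edgeR), 1 of 6 members tested where 0.434% of all genes were lower. Against untreated cells that combination left MCL1 at 0.39 (adjusted p = 0.00207) and BCL2L1 at 0.29 (adjusted p = 0.018), by edgeR. These 3 calls were lost without replicate 1 (−0.60, 0.36 and 0.23), and that of BCL2L1 also without replicate 2 (0.30) and with library size alone (0.17). Both MCL1 calls were lost with only the compared groups in the fit (−0.57, adjusted p = 0.11, and 0.39, adjusted p = 0.0537).

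With the replicate number as a block more members were called in MKN1 cells, as were more of all genes, whose share called in the same direction is given after each p. These members were BCL2L1 (0.22, adjusted p = 0.00589, 9.82%) and BOK (0.24, adjusted p = 0.0203, 9.82%) with EGF at 4 h, BCL2L1 with EGF and cetuximab at 4 h (0.26, adjusted p = 0.00382, 2.77%), BCL2 with cetuximab at 4 h (−0.44, adjusted p = 0.0112, 4.71%), BCL2L2 with EGF at 24 h (−1.05, adjusted p = 0.0351, 26.4%), BCL2 with EGF and cetuximab at 24 h (0.42, adjusted p = 0.00254, 18.2%), BAX with cetuximab at 24 h (−0.24, adjusted p = 0.0478, 15.7%) and BCL2L1 between EGF with and without cetuximab at 24 h (−0.22, adjusted p = 0.0134, 3.66%).

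In Hs746T cells 0 of 7 members tested passed with EGF, cetuximab or both at either time by edgeR and by DESeq2, and the largest count at an unadjusted p under 0.05 was 1, with EGF at 4 h. The effect on MCL1 in MKN1 cells exceeded that in Hs746T by 0.74 with EGF at 4 h and 0.86 at 24 h, and lay below it by a log2 difference of −0.74 with cetuximab at 4 h (all past an adjusted p of 0.05, joint edgeR fit, where 0.92%, 7.93% and 0.127% of all genes differed). The 4 h differences were not called without replicate 2 (0.69 with EGF and −0.79 with cetuximab), nor that with cetuximab without replicate 1 (−0.71). With the replicate number as a block, cetuximab effects on BCL2L1 at 4 h (−0.49, adjusted p = 5.8e-06, 1.64%) and on MCL1 (−0.50, adjusted p = 5.2e-05, 7.71%) and BCL2 (−0.48, adjusted p = 0.00491, 7.71%) at 24 h differed as well (the share of all genes called in that direction follows each p), and so did the EGF effect on BCL2 at 24 h (0.41, adjusted p = 0.00874, 12.3%). In untreated MKN1 cells, without any agent, MCL1 (log2 fold change −0.58, adjusted p = 4.97e-06, edgeR) and BCL2L1 (−0.31, adjusted p = 0.00643, edgeR) were lower at 24 h than at 4 h, where 16.4% of all genes were lower. The BCL2L1 call was lost without replicate 1 or 2 (both −0.26) and with library size alone (−0.14).

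The ratio of the effector BAX to its most abundant opponents rose at 4 h in the lines where BCL2L1 and MCL1 fell. In MKN7 cells at 4 h the log2 ratio of BAX to BCL2L1 went from −1.78 untreated to −0.18 with afatinib, a change of 1.6 or 3.03 times. The change was 0.88 in NCI-N87, 0.52 in MKN1 and 0.14 in Hs746T cells at 4 h, and 0.51, 0.08 and 0.14 in the same lines at 24 h, with 0.52 in MKN7. For BAX to MCL1 it was 0.98 in MKN7, 0.78 in MKN1, 0.65 in NCI-N87 and 0.17 in Hs746T cells at 4 h. At 24 h the BAX to MCL1 ratio had turned below its untreated value in NCI-N87 cells (−0.24), as BAX itself was lower there. In the other lines it stood higher on average, with overlapping libraries. The log2 values at 24 h were −2.59, −2.02 and −2.63 with afatinib against −2.91, −2.5 and −3.13 untreated in MKN1 cells. They were −1.82, −2.07 and −1.7 against −1.99, −2.21 and −2.24 in MKN7, and −1.96, −1.87 and −1.71 against −2.02, −1.9 and −1.84 in Hs746T cells. These ratios are descriptions of transcript levels and were not tested.

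**Figure D5:**
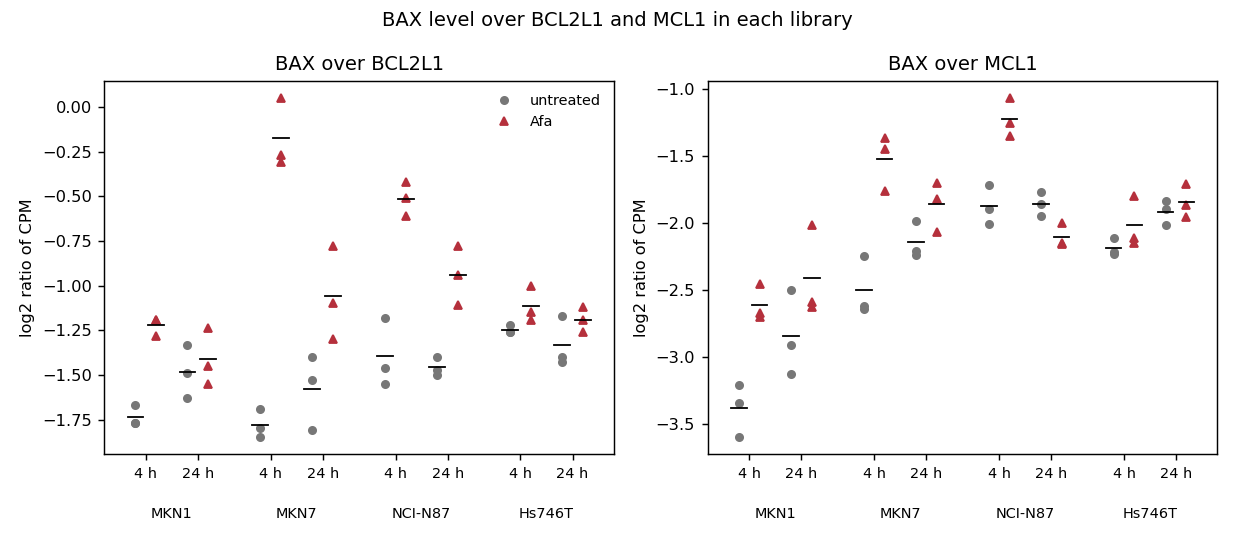
Log2 ratio of BAX to BCL2L1 and of BAX to MCL1 in CPM in each library, untreated and with afatinib, by line and time, with a bar at the mean. In MKN7 cells at 4 h the mean BAX to BCL2L1 ratio moves from −1.78 to −0.18, while Hs746T moves by 0.14.

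The other genes of the pathway were read from lists of their partners. Among 8 BH3-only genes, BMF, which binds survival proteins and is induced when growth signals are withdrawn, was regulated higher by afatinib in MKN1, MKN7 and NCI-N87 cells, at 1.64 in MKN1 (adjusted p = 0.0043), 1.10 in MKN7 (adjusted p = 9.96e-06) and 3.59 in NCI-N87 cells (adjusted p = 1.96e-14) at 4 h, by edgeR. BBC3, the gene for PUMA, was regulated higher in NCI-N87 cells (1.78 at 4 h, adjusted p = 2.76e-08, edgeR) and PMAIP1, the gene for NOXA, which binds MCL1, was lower there at 24 h (−1.35, adjusted p = 2.78e-08, edgeR). BMF went the other way with EGF in MKN1 cells at 24 h (−3.11, adjusted p = 2.78e-08, edgeR), as did HRK (−1.14, adjusted p = 0.00111, edgeR). HRK was regulated higher by afatinib in MKN7 cells at 24 h (1.67, adjusted p = 2.16e-05, edgeR), above BMF there (1.29). Of all genes, 48 of 19815 in MKN1, 335 of 18483 in MKN7 and 387 of 19078 in NCI-N87 cells were regulated higher by afatinib at 4 h. Of the 8 tested, 3 were called higher and 2 lower in NCI-N87 at 24 h, and 4 higher and 3 lower in MKN7, against 31.5% and 31%, and 26.6% and 25%, of all genes.

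In the list of 10 genes that report ERK activity, 9 were tested and all 9 fell with afatinib at both times in MKN1, MKN7 and NCI-N87 cells, with median log2 fold changes of −2.71, −3.22 and −4.16 at 24 h against medians of all genes of 0.005, 0.043 and 0.032. In Hs746T cells none of 10 passed (median −0.025 at 24 h). Of 11 caspase and apoptosome genes, 4 were called lower and 2 higher in MKN7 and 5 lower and 3 higher in NCI-N87 cells at 24 h, against 25% and 26.6%, and 31% and 31.5%, of all genes. CYCS, which encodes cytochrome c, was regulated lower in MKN7 (−1.06) and NCI-N87 cells (−1.71), DFFA, the inhibitor of the caspase-activated DNase, lower in NCI-N87 (−1.20), and CASP10, an initiator caspase of death receptors, higher in NCI-N87 cells (1.06). Of 14 p53 pathway genes tested, 1 was called lower and 2 higher in MKN1 cells at 24 h, where 13.3% of all genes were lower and 2427 of 19815 higher. In MKN7 cells 6 were lower and 1 higher, against 25% and 26.6% of all genes. In NCI-N87 cells 6 were lower and 2 higher, against 31% and 31.5% of all genes. AEN, an apoptosis nuclease, was regulated lower at 24 h in MKN1 (−1.19), MKN7 (−1.48) and NCI-N87 cells (−3.20), CDKN1A, the cell cycle inhibitor p21, lower in MKN7 (−1.09), and in NCI-N87 cells the death receptor gene FAS was lower (−1.31) and BTG2, an antiproliferative gene, higher (2.01). BAX, itself a p53 target, moved as given above. All 7 mitochondrial partner genes, such as the channel gene VDAC1 (−1.33 in NCI-N87), were called lower at 24 h in MKN7 and NCI-N87 cells, where 25% and 31% of all genes were, with medians of −0.43 and −0.79.

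The genes whose levels followed each member most closely across the 44 condition means, each centred on its own line, were found among 15748 genes by Pearson's r. The points share libraries and controls, and r is given as a description. BCL2 was most like ETV5 (r = 0.965), an ETS factor induced by ERK signalling, then TTLL12 (0.95) and ADORA2B (0.943). BCL2L1 was most like KLF16 (0.931), PTPN12 (0.921) and SH3TC2-DT (0.917), and MCL1 was most like PHC2 (0.958), DYRK2 (0.953) and STX1A (0.949). BAX was most like CCDC124 (0.983), AURKAIP1 (0.981) and HSD17B10 (0.98), BCL2L2 like ZNF554 (0.889), ZNF248 (0.853) and PHF7 (0.845), and BOK like SRRM3 (0.714), FAM230C (0.624) and ADAMTS7 (0.592), the loosest of the 6.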

How the data were processed

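RNA was measured in 132 libraries of 4 gastric cancer cell lines (polyadenylated RNA, a directional kit, paired-end reads). The authors deposited raw counts of reads per Ensembl gene identifier, 1 table per library, made by trimming with Trim Galore and alignment with STAR to hg38. The versions, the counting tool and its strand setting are not given in the sources used here. Identifiers were named with GENCODE 29, in which 8404 of 65217 had no entry (0.0422% of counts). Each library was placed in its line, treatment, time and replicate by its label, and nothing was left out.

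Counts were filtered with edgeR's filterByExpr (minimum count 10, minimum total count 15), scaled by TMM and fitted by edgeR 4.0.16 quasi-likelihood in R 4.3.3, with 1 mean per treatment and time, for each line separately, and in 1 joint fit of all lines for differences between lines. p-values were adjusted by Benjamini and Hochberg over all genes of the fit. Regulated means an adjusted p under 0.05 and an absolute log2 fold change over 1. The alternatives were DESeq2 1.42.0, a block for the replicate number, the fit of only the compared groups, each replicate left out in turn, scaling by library size alone, and a filter that kept all genes or those with 10 or more counts in each library. Likeness used condition means of log2 CPM with a prior count of 2. Figures were drawn with matplotlib 3.10.9 in Python 3.11.15. The fits were tested on simulated counts first.

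The members and gene lists were chosen with earlier results of these data known. The text names all 8 members, and from each list at most the 3 genes of largest change among those regulated. Replicate numbers come from the labels. Same-numbered libraries deviated together, every correlation being over 0.1, in 58 of 60 comparisons (range −0.01 to 0.74). The exceptions were both MKN1 comparisons of the drug pair with a single drug at 24 h. The main fits did not use these pairs, and only the values given with the replicate number as a block did. Where libraries are said to overlap, the groups were compared without regard to pairs. The labels call the replicates biological without saying what was separate, so p-values measure the spread between these cultures. Depth of 25832557 to 69434151 counts a library sets the precision of the lowly counted BCL2L2 and BCL2A1.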

Additional observations from a re-analysis of the deposited data

Results flagged for a closer look

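The effect of afatinib, EGF or cetuximab on a member differed between lines, or between 24 h and 4 h, in the values that follow, each past an adjusted p of 0.05 by edgeR. They are log2 differences of fold changes, first line minus second, or 24 h minus 4 h.

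For BCL2 under afatinib, MKN7 minus Hs746T was −1.25 at 4 h and −2.89 at 24 h. NCI-N87 minus Hs746T was −2.57 and MKN1 minus Hs746T −1.12 at 24 h. At the same time MKN1 minus MKN7 was 1.77 and MKN1 minus NCI-N87 was 1.45. The effect at 24 h minus that at 4 h was −1.31 in MKN7 and −1.81 in NCI-N87 cells. Beside the losses given with the results, MKN7 minus Hs746T at 4 h was not called without replicate 2 (−1.24) or 3 (−1.22), and MKN1 minus Hs746T at 24 h was not called with only the compared groups in the fit (−1.09).

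For BCL2L1 under afatinib at 4 h, MKN1 minus MKN7 was 1.08, MKN1 minus Hs746T −0.59, MKN7 minus NCI-N87 −0.66, MKN7 minus Hs746T −1.67 and NCI-N87 minus Hs746T −1.01. At 24 h MKN1 minus MKN7 was 0.61, MKN1 minus NCI-N87 0.89, MKN7 minus Hs746T −0.76 and NCI-N87 minus Hs746T −1.05. In MKN7 cells the later effect minus the earlier was 0.88. With EGF at 24 h MKN1 minus Hs746T was 0.45, which was not called without replicate 1 (0.43) or 2 (0.40), with library size alone (0.30, adjusted p = 0.0601) or with only the compared groups (0.48, adjusted p = 0.0569), by edgeR. Under afatinib MKN1 minus Hs746T at 4 h was not called without replicate 1 (−0.58) or 2 (−0.60) or with only the compared groups (−0.65), nor was MKN1 minus MKN7 at 24 h without replicate 2 (0.58).

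For MCL1 under afatinib at 4 h, MKN1 minus Hs746T was −0.82, MKN7 minus Hs746T −1.02 and NCI-N87 minus Hs746T −0.75, and at 24 h these were −0.59, −0.62 and −0.37. In NCI-N87 cells the later effect minus the earlier was 0.38. MKN1 minus Hs746T was 0.74 with EGF and −0.74 with cetuximab at 4 h, and 0.86 with EGF at 24 h. Of the 24 h differences from Hs746T, −0.59 and −0.62 were not called without replicate 3 (−0.48 and −0.39) or with only the compared groups (−0.56 and −0.57). The −0.37 was not called without any 1 of the replicates (−0.32 to −0.42), with library size alone (−0.15, adjusted p = 0.423), with DESeq2 (−0.25) or with only the compared groups (−0.28).

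Among the rest, BAX under afatinib at 24 h gave −0.69 for NCI-N87 minus Hs746T, and −0.50 in NCI-N87 for the later effect minus the earlier. The latter was not called without replicate 1 (−0.31, adjusted p = 0.256) or 2 (−0.50, adjusted p = 0.124), by edgeR. BCL2L2, with 5 to 30 counts a library in NCI-N87 at 24 h, gave 1.17 for NCI-N87 minus Hs746T, which was not called without replicate 2 (1.30) or 3 (0.66) or with only the compared groups (1.26). BOK gave 0.37 in MKN7 for the later effect minus the earlier, which was not called without replicate 2 (0.40) or 3 (0.23).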

How the results depend on the processing

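No value past the test reversed under the alternatives run. BOK in NCI-N87 cells at 24 h, not past the test, turned from −0.016 to 0.25 with afatinib and from −0.038 to 0.27 with both drugs when scaled by library size alone. Of the values past the test, 163 kept their side of the limits and 3 did not with DESeq2, 147 and 19 with library size alone, 153 and 13 without a filter, 143 and 5 with at least 10 counts in every library, 145 and 21 with only the compared groups, 107 and 1 with the replicate number as a block, and 140 and 25, 136 and 30, and 134 and 31 without replicate 1, 2 and 3, where 1 value each without replicate 1 and 3 came past the size limit. Beside the calls given with the results, the block changed no other call against untreated cells. It was set within line and time and so gave no test of untreated levels between lines or times. Library size alone moved the median log2 fold change of all genes by −0.20 with EGF in MKN1 cells and by 0.26 with afatinib in NCI-N87 cells at 24 h. BCL2L2 and BCL2A1 are limited by their low counts.

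The counts of members here and in the paragraphs that follow moved by more than 1.5 times. The number of all genes called also depended on the setting. With EGF in MKN1 cells at 4 h, for example, 865 of 19815 genes were called higher in the main fit. With the block it was 1946, and with library size alone 573. The counts of members therefore describe the settings, and are not read as results particular to the members. With the block, members with an adjusted p under 0.05 were 3 with EGF and 2 with EGF and cetuximab at 4 h and 2 for EGF with against without cetuximab at 24 h in MKN1, and 2 with afatinib and 1 with both drugs at 4 h in Hs746T. Regulated members in MKN1 at 24 h were 1 with EGF and 0 with both drugs. Members whose afatinib effect differed were 2 for MKN1 and MKN7, 1 for MKN1 and NCI-N87 and 2 for MKN7 and NCI-N87 at 4 h, 2 for MKN7 and NCI-N87 at 24 h, and between times 2 in MKN1 and 5 in MKN7. The cetuximab effect differed between MKN1 and Hs746T for 2 at each time.

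With library size alone, regulated members were 0 with both drugs and 1 with EGF in MKN1 at 24 h and 0 with afatinib in NCI-N87 at 4 h. In MKN1, members with an adjusted p under 0.05 were 1 with EGF and cetuximab, 2 with both drugs against trastuzumab and 1 for untreated cells between times. Members that differed were 1 for MKN1 and NCI-N87 (afatinib, 4 h), 1 for MKN7 and NCI-N87 (afatinib, 24 h), 1 for MKN1 and Hs746T (EGF, 24 h) and 1 in MKN1 between times. With at least 10 counts in every library, 0 were regulated with both drugs in MKN1 at 24 h and 0 with afatinib in NCI-N87 at 4 h, the cetuximab effect of MKN1 and Hs746T differed for 2 at 4 h and 1 at 24 h, and the afatinib effect for 1 in MKN1 and NCI-N87 at 4 h, 1 in MKN7 and NCI-N87 and 3 in NCI-N87 and Hs746T at 24 h. Untreated levels at 4 h then differed from Hs746T for 4 members in MKN1 and 3 in NCI-N87, since fewer members were tested there.

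Without a filter, 0 members were regulated in MKN1 and 2 in MKN7 with both drugs at 24 h, 2 passed for both drugs against trastuzumab in MKN1, and 3 differed in the afatinib effect of NCI-N87 and Hs746T at 24 h. With only the compared groups, which leaves fewer libraries in a fit, MKN1 cells had 0 regulated with both drugs at 24 h, 0 passing with EGF and cetuximab at 4 h and 1 at 24 h, 1 with cetuximab at each time and 0 for EGF with against without cetuximab at 24 h. Members that differed were 1 at 4 h and 0 at 24 h for MKN1 and Hs746T under afatinib, 1 with EGF at 24 h, 2 for MKN1 and MKN7 at 4 h and 3 for NCI-N87 and Hs746T at 24 h. With DESeq2 the cetuximab effect of MKN1 and Hs746T differed for 2 at 4 h and 1 at 24 h, and 1 member passed between times in untreated Hs746T. With the longest transcript, 6 of 8 members kept their rank at 4 h in every line and at 24 h in MKN1, and 4 at 24 h in Hs746T, MKN7 and NCI-N87. Counts under afatinib without BCL2L2, an alternative chosen after seeing the data, stayed within 1.5 times.

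Leaving out each replicate in turn gave ranges. Members with an adjusted p under 0.05 in MKN1 were 0 to 1 with EGF and cetuximab and 1 to 2 with cetuximab at 4 h, 0 to 3 with EGF and cetuximab, 1 to 2 with cetuximab, 0 to 1 for EGF with against without cetuximab and 1 to 2 for both drugs against trastuzumab at 24 h, and 1 to 2 between times in untreated cells (0 to 2 in MKN7). Regulated members were 0 to 1 with EGF, afatinib or both drugs in MKN1 at 24 h and 0 to 1 with afatinib in NCI-N87 at 4 h. The afatinib effect differed at 4 h for 1 to 2 members in MKN1 and Hs746T and 0 to 1 in MKN7 and NCI-N87, and at 24 h for 1 to 2 in MKN1 and MKN7, 0 to 2 in MKN1 and Hs746T, 0 to 1 in MKN7 and NCI-N87 and 2 to 4 in NCI-N87 and Hs746T. Between MKN1 and Hs746T the EGF effect differed for 0 to 1 at 4 h and 1 to 2 at 24 h, and the cetuximab effect for 0 to 1 at 4 h. Between times the afatinib effect differed for 1 to 3 in MKN7 and 1 to 2 in NCI-N87. Untreated levels of MKN1 and NCI-N87 at 4 h differed for 1 to 4. For the differences in treatment effect and the treatment effects printed in the text, the library whose omission ended a call is named with the results or the differences between lines and times above. The cause was not tested.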
